A study of Homo sapiens with 13 samples.

Results

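The 8 haem synthesis enzyme genes ALAS1, ALAS2, ALAD, UROS, UROD, CPOX, PPOX and FECH were followed while human embryonic stem cells differentiated toward blood. They were chosen by name, as enzymes of the pathway, with both ALAS genes for its opening step. The array held 15 probes for them among 47230 probes with values, and all 8 genes passed the detection filter in both experiments, out of 17657 genes tested over days and 15891 in the sorted fractions.

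Haem is an iron-bearing ring that carries oxygen in haemoglobin and electrons in cytochromes. Its synthesis opens in the mitochondrion, where an ALAS enzyme joins glycine and succinyl-CoA, goes on in the cytosol through enzymes that include ALAD, UROS and UROD, and ends in the mitochondrion with CPOX, PPOX and FECH. ALAS1 serves most tissues and is held down by haem, whereas ALAS2 is the red cell form, under GATA1 and, through an iron-responsive element in its messenger RNA, under iron. Developing red cells and liver cells make the most haem.

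All samples carried the RUNX1C GFP/w reporter in 1 line, HES3, derived from a human embryo and long established. After growth on mouse feeders with FGF2 the cells were spun into embryoid bodies in APEL medium. Until day 4 this held Activin, BMP4, SCF and VEGF. From then on Activin was replaced by IGF2 and FGF2. Illumina arrays, 13 in all, covered unsorted cells on each day from 0 to 8 and 4 fractions sorted on day 7. The fractions were CD34lo CD41lo and, among cells without CD41, the CD34-, the CD34lo and the CD34hi cells, written CD34- CD41- and so on. CD34 marks endothelium and early blood cells, and CD41 megakaryocytes and the earliest blood cells.

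There was 1 array per day and per fraction. Levels therefore have no SD or n, and precision is limited by how few arrays there are. Between 15134 and 17833 probes were detected per array, with detection p below 0.01. Levels are normalized log2 intensities of the brightest probe of a gene, and a difference of 1 is 2-fold. Detected probes started at a floor between 5.29 and 5.73, depending on the array. The gates were seen in the RNA: CD34 stood at 8.52 in CD34- CD41-, 10.58 in CD34lo CD41-, 12.88 in CD34hi CD41- and 10.06 in CD34lo CD41lo cells, and ITGA2B, which encodes CD41, at 9.19 in the last and at most 5.96 in the other fractions. Per the labels the arrays of days were on 1 chip and those of fractions on another, so chip and sorting cannot be told apart. In such bulk samples fewer cells of a type and less RNA per cell cannot be told apart either.

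The promoters of ALAS2 and CPOX are shown because both genes rose over days and were high in CD34lo CD41lo cells, and that of ALAS1 because it did neither. They are the 250 bases before the start of each gene, read 5′ to 3′ on its own strand, from RefSeq on GRCh38.p14: chrX:55030978-55031227 (minus strand) for ALAS2, chr3:98593612-98593861 (minus strand) for CPOX and chr3:52197833-52198082 (plus strand) for ALAS1. Capitals mark the letters AGATAA or AGATAG and likewise TGATAA or TGATAG on either strand, the forms of the site that GATA factors are known to bind.
ALAS2: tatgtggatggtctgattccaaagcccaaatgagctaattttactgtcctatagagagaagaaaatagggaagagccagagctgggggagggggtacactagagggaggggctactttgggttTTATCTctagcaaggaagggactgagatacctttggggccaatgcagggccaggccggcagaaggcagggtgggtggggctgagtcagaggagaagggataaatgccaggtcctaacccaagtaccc
CPOX: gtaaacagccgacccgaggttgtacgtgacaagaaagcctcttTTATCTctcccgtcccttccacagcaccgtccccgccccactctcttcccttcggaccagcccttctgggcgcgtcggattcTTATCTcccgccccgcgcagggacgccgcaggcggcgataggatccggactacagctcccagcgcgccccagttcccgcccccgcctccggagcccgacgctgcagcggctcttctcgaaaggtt
ALAS1: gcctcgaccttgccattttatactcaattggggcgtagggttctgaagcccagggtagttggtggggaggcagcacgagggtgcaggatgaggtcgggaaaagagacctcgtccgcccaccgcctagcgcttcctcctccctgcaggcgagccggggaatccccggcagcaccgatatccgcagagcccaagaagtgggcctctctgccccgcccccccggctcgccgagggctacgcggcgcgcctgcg
ALAS2 held 1 match, which opened 127 bases before the start, CPOX held 2, at 207 and 125 bases, and ALAS1 held 0. Of the 35116 promoters of this length 22.3% held at least 1 match and 4.96% at least 2, with overlapping matches counted. Those shares are per promoter, and 4 of the 9 promoters found for the enzyme genes held a match. By gene, promoters were in the table for 7 of the 8, all but UROS, and 4 held a match in at least 1 promoter. These were ALAS2, CPOX, ALAD and PPOX, and ALAD and PPOX each had a further promoter with 0 matches. UROD and FECH, also highest in CD34lo CD41lo cells, held 0. ALAD and UROS also rose over days and were highest in those cells, by 1.11-fold and 1.35-fold over the next fraction. A match is a description of the letters and was not tested for binding.

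The 9 days of unsorted cells gave the level of each enzyme gene on the way from stem cells to blood. ALAS2, ALAD, UROS and CPOX rose from day 0 to day 8, and for ALAS1, UROD, PPOX and FECH no change passed. A trend over days (limma moderated F test on a smooth curve, adjusted p below 0.05) was found for 4 of the 8 genes, against 38.8% of all genes tested. Rises from day 0 to day 8 that passed the test and were at least 2-fold numbered 4 of 8, against 11.8% of all genes, and falls 0 of 8, against 10.2%. The median fitted change of the 8 genes was 0.74 on the log2 scale, against -0.04 over all genes. The spread behind each SE is the departure of single days from the curve, so no replicate stands behind it.

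**Figure D1:**
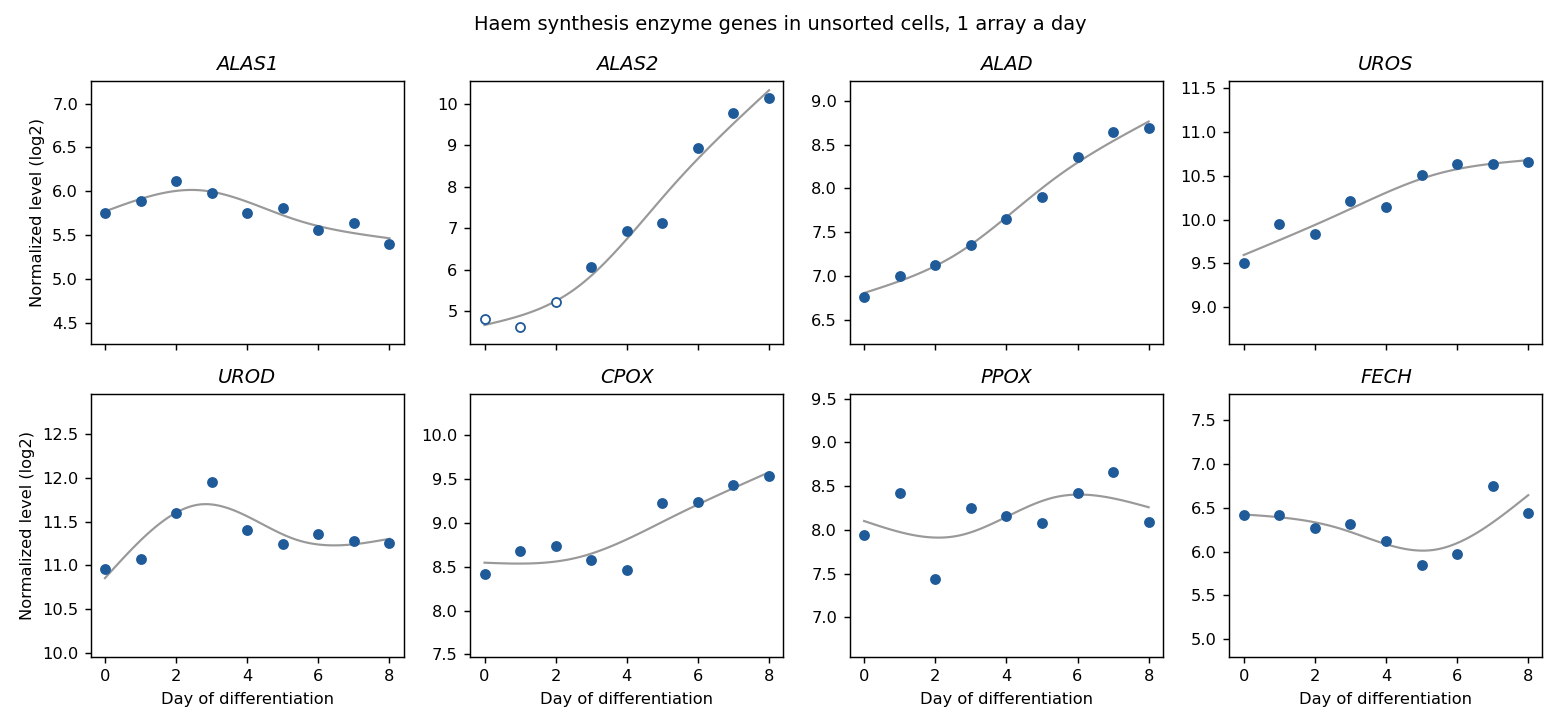
Normalized log2 levels of the 8 genes in unsorted cells against day of differentiation, 1 array a day, with the fitted curve in grey. Filled points were detected and open points were not, and the axes differ in position and, for ALAS2, in span. ALAS2 climbed from below detection to 10.14, whereas ALAS1 stayed between 5.40 and 6.11.

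ALAS2, which makes the first committed molecule of haem in red cells, had the largest change of the 8. Its level was 4.83 on day 0, 4.62 on day 1 and 5.23 on day 2, all below detection, then 6.06 on day 3, 6.95 on day 4, 7.14 on day 5, 8.93 on day 6, 9.77 on day 7 and 10.14 on day 8. It was first detected on day 3, and its largest step between neighbouring days was 3.47-fold, from day 5 to day 6. The fitted rise was 2.07 ± 0.36 from day 0 to day 4 (SE, limma adjusted p = 0.00604) and 3.58 ± 0.36 from day 4 to day 8 (adjusted p = 0.000632). Over the whole course it was 5.65 ± 0.41 (adjusted p = 6.36e-05), and it ranked 65 among all genes by fitted rise. On the arrays themselves day 8 was at least 27.3-fold above day 0, with day 0 raised to its floor. Without day 0 the early rise did not pass (adjusted p = 0.0524), and without day 8 the late one did not (adjusted p = 0.0599).

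ALAS1, the ALAS gene of other tissues, showed no such course. Its level was 5.75 on day 0, 6.11 on day 2, 5.75 on day 4 and 5.40 on day 8, which was its lowest, and all 9 days lay within 0.71 on the log2 scale. The fitted change from day 0 to day 8 was -0.31 ± 0.23 (limma adjusted p = 0.365), with a 95% interval from -0.82 to 0.21. Of its 3 probes 1 was detected, not far above the floor, which was 5.37 on day 0 and 5.29 on day 8. A 2-fold fall from the day 0 level would have ended below that floor, so the interval cannot exclude such a fall.

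ALAD, which joins 2 molecules of the ALAS product into porphobilinogen, climbed steadily. The level went from 6.76 on day 0 through 7.0, 7.13, 7.36, 7.65, 7.90, 8.36 and 8.64 to 8.69 on day 8, and each day stood above the one before. Its fitted rise was 1.96 ± 0.22 from day 0 to day 8 (limma adjusted p = 0.000442) and 1.09 ± 0.19 from day 4 to day 8 (adjusted p = 0.00911). The first 4 days had a fitted change of 0.87 ± 0.19 (adjusted p = 0.0163), which is under 2-fold and was not counted. Without day 8 the late rise did not pass (adjusted p = 0.273). The days departed from the curve by an SD of 0.087 on the log2 scale, the smallest of the 8 genes, against 0.37 for ALAS2.

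UROS and UROD follow each other in the cytosol, where UROS closes the ring and UROD trims its side chains. UROS stood at 9.50 on day 0, its lowest, then at 9.95, 9.84, 10.21, 10.15, 10.51, 10.63 and 10.63, and at 10.66 on day 8, its highest. It rose by 1.08 ± 0.24 from day 0 to day 8 (limma adjusted p = 0.011), but not without day 0 (adjusted p = 0.291) or day 8 (adjusted p = 0.227). UROD had a hump: it was at 10.96 on day 0, 11.60 on day 2, 11.95 on day 3, 11.41 on day 4 and between 11.25 and 11.36 from day 5 on. Its trend did not pass (adjusted p = 0.105), and its fitted change from day 0 to day 8 was 0.45 ± 0.27 (adjusted p = 0.263). The 95% interval of that change ran from -0.17 to 1.07, so a 2-fold rise of UROD lay inside it.

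CPOX, PPOX and FECH, the mitochondrial end of the pathway, differed from each other. CPOX, which oxidizes coproporphyrinogen, lay between 8.41 and 8.74 from day 0 to day 4, at 9.23 on day 5 and at 9.53 on day 8. It rose by 1.03 ± 0.30 over the whole course (limma adjusted p = 0.0314), close to the 2-fold threshold. Without day 0, 6, 7 or 8 in turn this rise did not pass (adjusted p = 0.554, 0.0527, 0.0665 and 0.281). PPOX, which makes protoporphyrin, ranged from 7.44 on day 2 to 8.67 on day 7 with no trend (adjusted p = 0.586). FECH, which inserts iron, stood at 6.42 on day 0, 5.85 on day 5, 6.75 on day 7 and 6.44 on day 8, and its trend did not pass (adjusted p = 0.292). The 95% intervals of the change from day 0 to day 8 ran from -0.79 to 1.10 for PPOX and from -0.47 to 0.91 for FECH. A 2-fold rise of PPOX lay inside its interval. That of FECH is not excluded either, since its fitted change ranged from 0.03 to 1.07 as each day was left out in turn.

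**Figure D2:**
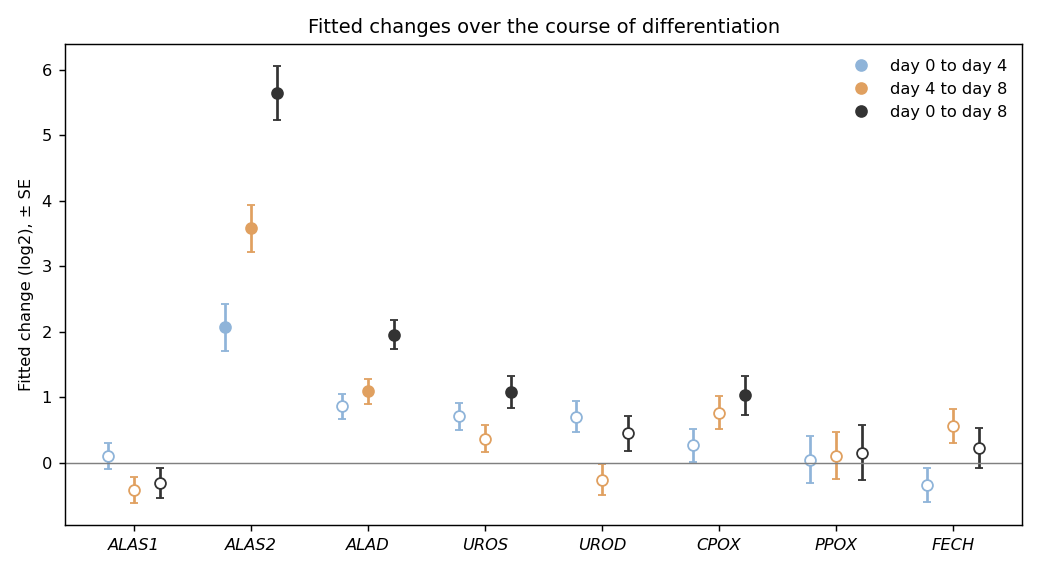
Fitted log2 changes of the 8 genes in 3 intervals, with SE bars from the curve through 9 arrays. Filled points passed the test at adjusted p below 0.05 and at least 2-fold, open points did not. ALAS2 passed in all 3 intervals, ALAD in the later interval and the whole course, and UROS and CPOX in the whole course alone.

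By interval, 1 of the 8 genes rose from day 0 to day 4, against 6.28% of all genes, and 0 fell, against 5.92%. From day 4 to day 8, 2 rose, against 4.94%, and 0 fell, against 2.64%. In either direction 12.2% of all genes changed in the first interval, 7.58% in the later one and 22% over the whole course.

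Red cell genes were first detected on different days, and ALAS2, on day 3, came neither first nor last. GYPE, of the glycophorins of the red cell surface, was detected from day 2, and HBG2, a foetal globin, was also first detected on day 2 and without a break from day 5. GYPB, a further glycophorin, stood at 4.54 on day 2, below detection, and at 10.75 on day 3. The globin genes HBA2 and HBQ1 were detected as early as day 0, at 7.11 and 6.95, though not on day 5. AHSP, a globin chaperone, was first detected on day 1 (5.74). HBE1, the embryonic beta-like globin, was first detected on day 5 (6.19) and HBZ, its alpha-like partner, on day 6 (9.54). ALAS2 had by then reached 7.14 and 8.93. GATA1 and KLF1, the factors that drive red cell genes, stayed near the floor: GATA1 was at most 5.39 and KLF1 at most 5.79 on any day, and neither passed from day 0 to day 8 (limma adjusted p = 0.106 and 0.0989). NFE2, a factor of red cells and megakaryocytes, was at 4.91 on day 0, 6.85 on day 3 and 9.13 on day 6.

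**Figure D3:**
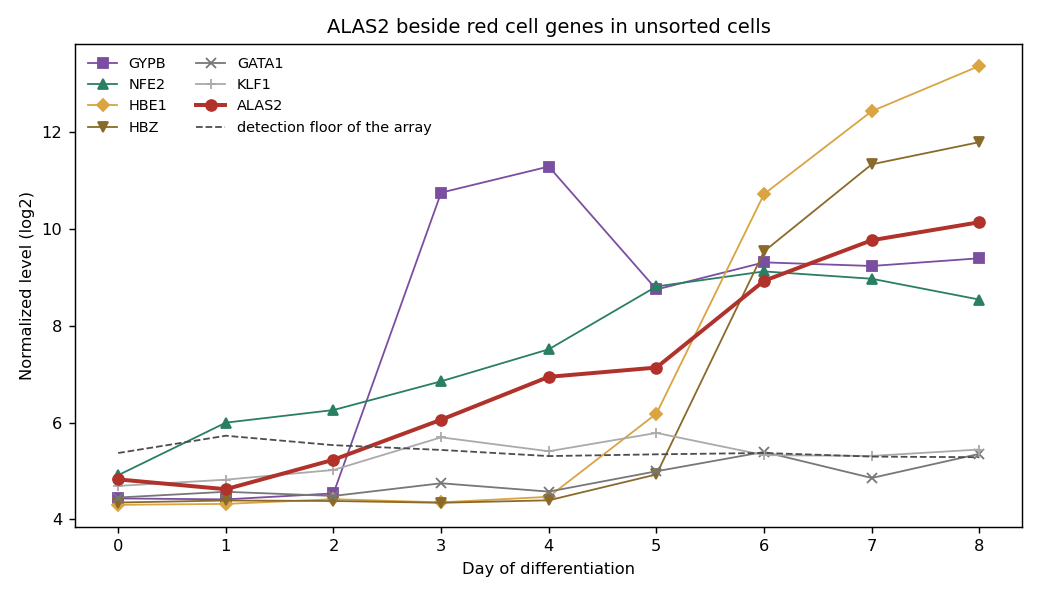
Normalized log2 levels of ALAS2 and 6 red cell genes in unsorted cells by day, with the detection floor of each array dashed. ALAS2 crossed the floor on day 3, with GYPB, whereas HBE1 did so on day 5 and HBZ on day 6.

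Genes around the pathway were counted by lists chosen with earlier results of these data known. Of 10 genes tested from a list of globins and their chaperone AHSP, 9 rose from day 4 to day 8, led over the whole course by HBE1 (9.43 ± 1.04, limma adjusted p = 0.000404) and HBG2 (9.02 ± 1.15). Of 11 regulators of the ALAS genes, LMO2 (4.24 ± 0.71), NFE2 (3.45 ± 0.34) and the erythropoietin receptor gene EPOR (1.90 ± 0.33) rose from day 0 to day 8. PPARGC1A, a coactivator known to induce ALAS1 in liver, fell (-1.05 ± 0.33, adjusted p = 0.045, detected on days 0 and 7 only). Of all genes 4.94% rose from day 4 to day 8, the interval of the globin count. For each other list here the shares are the 11.8% that rose and 10.2% that fell from day 0 to day 8. Of 13 genes of haem and mitochondrial iron transport 1 rose, SLC25A37, the mitochondrial iron importer of red cells (1.69 ± 0.43, adjusted p = 0.0189), and 0 fell. Of 4 haem breakdown genes 0 changed from day 0 to day 8. HMOX1, haem oxygenase, fell from day 0 to day 4 (-1.51 ± 0.36, adjusted p = 0.0239), 1 of 4 against 5.92% of all genes. Of 9 genes that supply glycine and succinyl-CoA 1 fell, the amino acid carrier SLC38A5 (-1.33 ± 0.37, adjusted p = 0.0269). Of 11 iron-sulphur cluster genes the ferredoxin FDX1 rose (1.08 ± 0.28, detected on days 7 and 8 only) and its relative FDX2 fell (-1.04 ± 0.32).

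Other cell types came up on the same days. The 8 endoderm and liver markers had a summed linear level of 1821 on day 0, 2863 on day 4, 29138 on day 6 and 61106 on day 8, and 8 of 8 were detected on day 8, against 2 on day 0. Of 11 red cell markers 1 was detected on day 0, 5 on day 4 and 7 on day 8, with summed levels of 2037, 10139 and 4226, and EPB42, SLC4A1, ANK1 and SPTB were not detected on day 8. Of 7 red cell markers tested 3 rose from day 0 to day 8, led by GYPE (6.71 ± 1.63) and KEL (2.88 ± 0.51). The endothelium list had 7 of 8 rising, led by CD34 (5.84 ± 0.59) and CDH5 (4.50 ± 0.57), and the endoderm and liver list 7 of 8, led by APOA2 (9.81 ± 0.98) and TTR (8.80 ± 1.03). Among 8 mesenchyme markers 5 rose, led by LUM (8.36 ± 1.01) and DCN (7.87 ± 0.47), and 1 fell. Pluripotency markers fell in 7 of 7, led by SOX2 (-7.16 ± 0.51) and POU5F1 (-6.36 ± 0.26). Of 8 cell cycle genes 5 fell, led by MCM5 (-2.57 ± 0.30) and RRM2 (-2.40 ± 0.37). Of 5 leukocyte and myeloid markers LYZ rose (1.13 ± 0.22) and CORO1A fell (-1.48 ± 0.33), and of 5 megakaryocyte markers 0 passed. For each of these lists the shares over all genes are again 11.8% that rose and 10.2% that fell from day 0 to day 8. The part of these other cell types in the rises of ALAS2, ALAD, UROS and CPOX was not tested.

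The genes most like each riser over the 9 days were found by Pearson's correlation of log2 levels among 8768 genes that were detected on at least 3 days and varied by at least 1. For ALAS2 they were ALAD (r = 0.990), COLEC11, a collectin (0.989), and SEC13 (0.987). For ALAD they were COLEC11 (0.994), SULT1A2, a sulphotransferase (0.991), and ALAS2. ZNF514 (0.996), CDK20 (0.991) and ELAVL1 (0.989) were nearest to UROS, and MDM1 (0.978), SPN (0.977) and LOC646762 (0.975) to CPOX. The likeness is over 9 days that all share the order of time. In the fractions the genes nearest to ALAS2 differed from it. ALAS2 was highest in CD34lo CD41lo cells (12.44), by 2.81-fold over the next fraction, and ALAD (8.30) by only 1.11-fold. COLEC11 (6.79) and SEC13 (9.54) were lowest there.

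The sorted fractions showed where in the day 7 culture the enzyme RNA was found. Of the 8 genes 7 were highest in the CD34lo CD41lo fraction, all but ALAS1, against 34.5% of the 15891 genes measured. ALAS2, PPOX and FECH were at least 2-fold above every other fraction there, 3 of 8, against 1.78% of all genes. With 1 array a fraction there is no test of these differences.

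**Figure D4:**
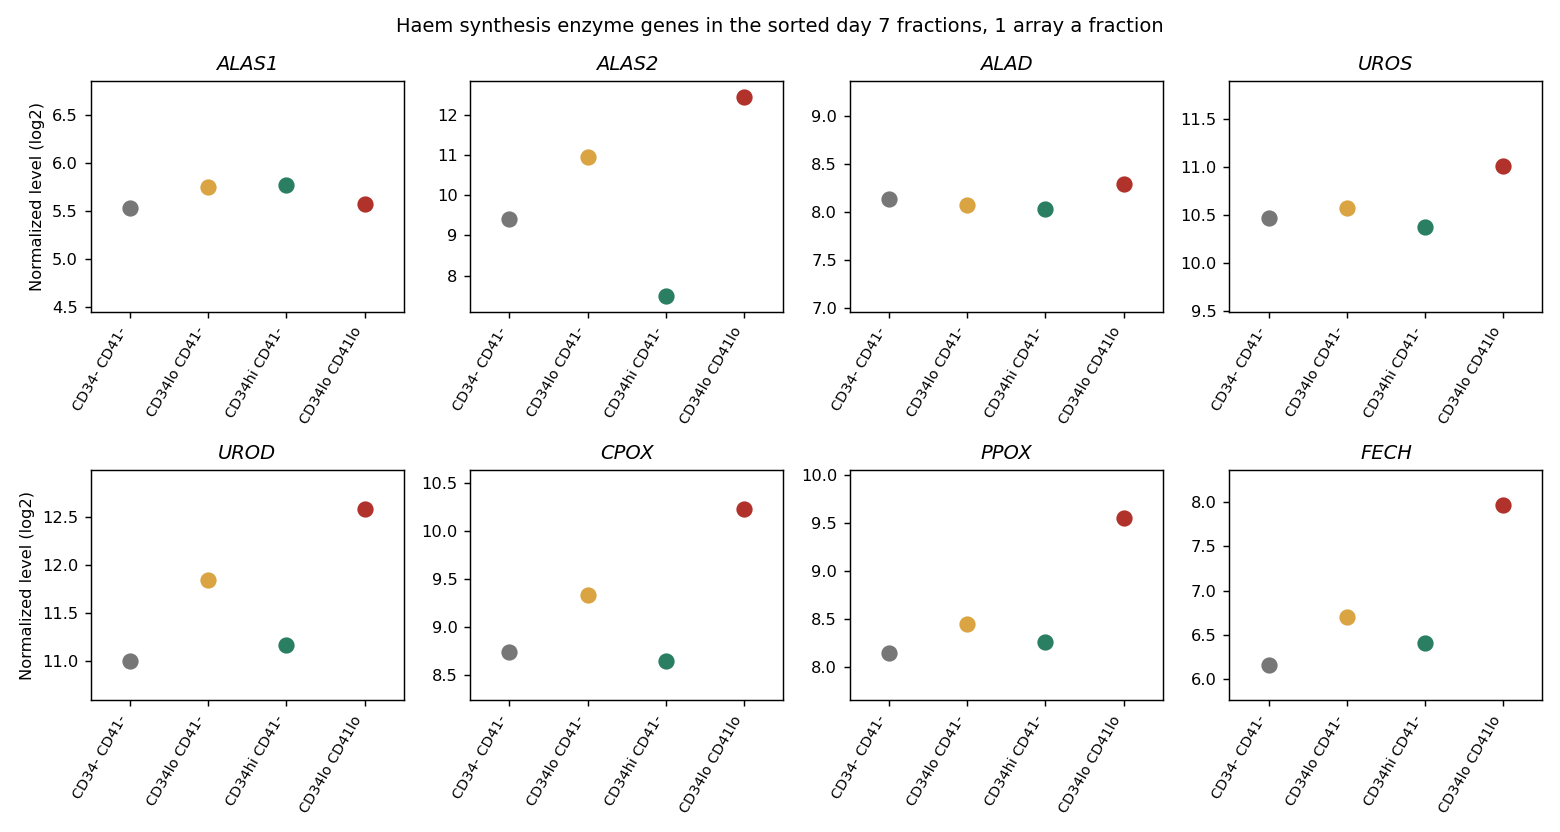
Normalized log2 levels of the 8 genes in the 4 sorted day 7 fractions, 1 array a fraction, all detected, with axes that differ in position and span. The CD34lo CD41lo point is the highest in each panel except that of ALAS1.

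ALAS2 varied most among the fractions. It was at 7.50 in CD34hi CD41-, 9.40 in CD34- CD41-, 10.94 in CD34lo CD41- and 12.44 in CD34lo CD41lo cells. It was therefore lowest in the fraction with the most CD34 and detected in all 4. CD34lo CD41lo cells had 2.81-fold the level of CD34lo CD41- cells and 30.5-fold that of CD34hi CD41- cells, and 5 of all genes had a larger difference of the latter kind. The other probes of ALAS2 were detected in CD34lo CD41lo cells and on no other array. They stood there at 7.35 and 6.12, the first at least 4.06-fold above CD34lo CD41- cells. The other was above them by at least 1.73-fold, which is short of 2-fold. Which transcripts the 3 probes read was not analysed here.

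ALAS1 was level across the fractions, at 5.53 in CD34- CD41-, 5.75 in CD34lo CD41-, 5.78 in CD34hi CD41- and 5.58 in CD34lo CD41lo cells. ALAD and UROS, both of which rose over days, differed little. ALAD was at 8.14, 8.08, 8.03 and 8.30 in the same order, and UROS at 10.47, 10.58, 10.37 and 11.01. The highest ALAD fraction was below the unsorted day 7 array (8.64), the only one of the 8 genes for which this held. Endoderm and liver markers summed to 51073 in unsorted cells of day 7, to 38161 in CD34- CD41- and to 1781 in CD34lo CD41lo cells, and their part in the ALAD level was not tested.

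UROD, CPOX, PPOX and FECH, of which CPOX alone had risen over days, were each at least 2-fold higher in CD34lo CD41lo than in CD34hi CD41- cells. UROD was at 11.00 in CD34- CD41-, 11.84 in CD34lo CD41-, 11.17 in CD34hi CD41- and 12.58 in CD34lo CD41lo cells. CPOX was at 8.74, 9.34, 8.65 and 10.23 in the same order. The CD34lo CD41lo level of PPOX was 9.56, with 8.15 to 8.45 elsewhere, and that of FECH was 7.97, with 6.16 to 6.70 elsewhere. Both were highest in the fraction that held the most ALAS2, by 2.15-fold and 2.40-fold over CD34lo CD41- cells.

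Across the CD34lo gate, where cells differ in CD41, 3 of the 8 genes were at least 2-fold higher in CD34lo CD41lo cells, against 2.68% of all genes, and 0 lower, against 5.68%. Against CD34hi CD41- cells 5 were higher, against 5.17%, namely ALAS2, UROD (2.66-fold), CPOX (2.99-fold), PPOX (2.45-fold) and FECH (2.95-fold), and 0 lower, against 6.95%. Both comparisons share the CD34lo CD41lo array. The medians of the 8 genes were 0.82 and 1.35 on the log2 scale, against 0.11 and 0.08 over all genes. CD34lo CD41- cells were also set against each of the other fractions without CD41, and there ALAS2 alone of the 8 differed 2-fold. It was 2.92-fold higher in CD34lo CD41- than in CD34- CD41- cells, with 1 of 8 higher against 2.64% and 0 lower against 4.23%. It was 10.9-fold lower in CD34hi CD41- than in CD34lo CD41- cells, with 1 of 8 lower against 4% and 0 higher against 3.98%. Genes at least 2-fold apart in either direction made up 6.87% and 7.99% in these pairs, and 8.36% and 12.1% for CD34lo CD41lo cells against CD34lo CD41- and CD34hi CD41- cells.

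**Figure D5:**
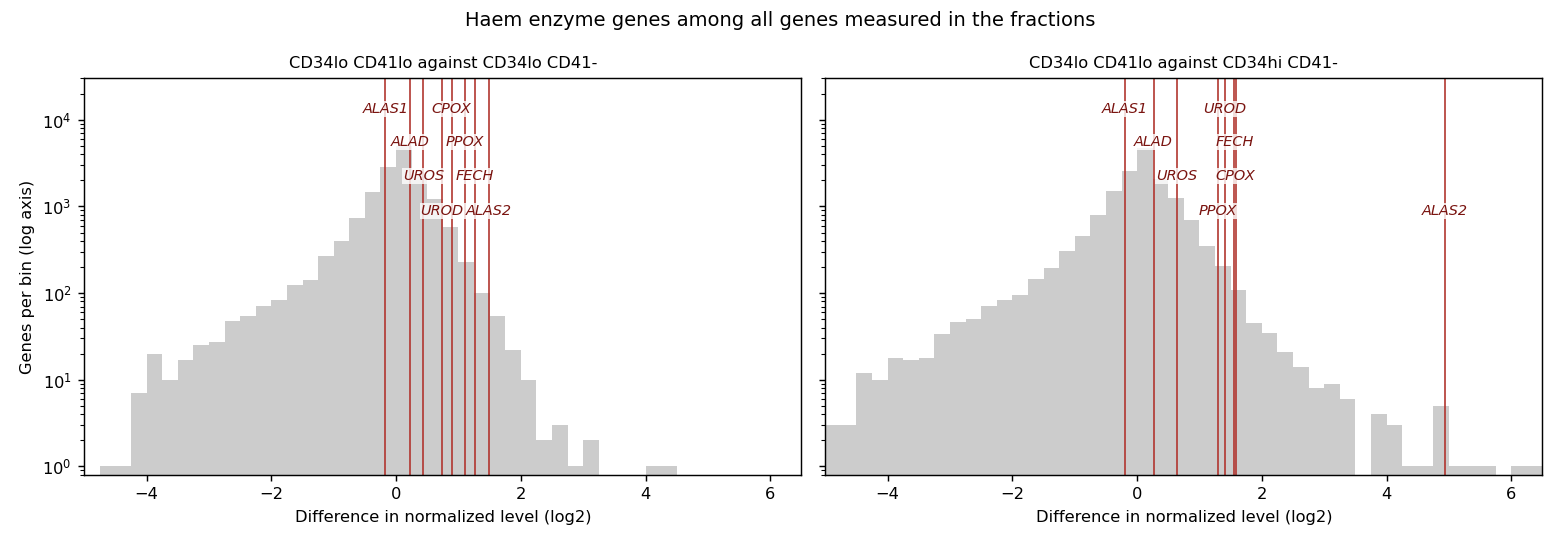
Number of genes per bin of log2 difference, on a log axis, for CD34lo CD41lo cells against CD34lo CD41- cells (left) and against CD34hi CD41- cells (right), over 15891 genes, with the 8 enzyme genes as red lines. ALAS1 lies at -0.17 and -0.20 and ALAS2 at 1.49 and 4.93, and the other 6 lie above 0 in both.

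The fraction with the most enzyme RNA also held the most red cell RNA. Of 11 red cell markers 9 were detected in CD34lo CD41lo cells, 7 in CD34lo CD41- and 6 in each of the others, with summed levels of 26471, 11545, 3305 (CD34- CD41-) and 2344 (CD34hi CD41-), and SPTB and SLC4A1 were undetected in all 4. Megakaryocyte markers summed to 3073 in CD34lo CD41lo cells and 268 to 2115 elsewhere, with PF4 undetected in all 4, and leukocyte and myeloid markers to 2571 against 286 to 1271, with PTPRC and MPO undetected. Endothelium markers summed to 24908 in CD34hi CD41- and 5227 in CD34lo CD41lo cells. Cell cycle genes were also highest in CD34lo CD41lo cells, with a sum of 9400 there and 3472 to 5285 elsewhere. All 8 of them were highest there, against 34.5% of all genes, and 3 were at least 2-fold above every other fraction, against 1.78%. GATA1 stood at 8.44 in CD34lo CD41lo and 6.74 in CD34lo CD41- cells and was not detected in CD34hi CD41- cells, and KLF1 stood at 8.67, 7.11 and 5.72 in these fractions. The part of the cell makeup or of the cell cycle in the enzyme differences was not tested.

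Companions of the pathway were counted in the same comparisons. Of 13 haem and mitochondrial iron transport genes 5 were at least 2-fold higher in CD34lo CD41lo than in CD34hi CD41- cells, and 0 were lower. The shares of all genes, 5.17% and 6.95%, hold for each list in this comparison. The 5 higher transport genes were ABCB6 (5.47-fold), SLC25A37 (5.37-fold), the haem carrier SLC48A1 (2.65-fold), ABCB10 (2.59-fold) and FAM210B (2.19-fold). Of 4 breakdown genes 2 were higher, among them BLVRB, a biliverdin reductase abundant in red cells (11.1-fold). Of 9 genes of glycine and succinyl-CoA supply 2 were higher, among them the glycine carrier SLC6A9 (at least 4.66-fold). Of 10 iron-sulphur cluster genes 0 differed 2-fold in either direction. Of 11 globin genes with the chaperone 9 were higher, with HBE1 53.0-fold apart.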

How the data were processed

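Total RNA was labelled as biotinylated cRNA and hybridised to Illumina bead arrays, 13 in all. Some deposited intensities are negative, which shows that background was already subtracted. Signal and detection columns come in pairs, 1 pair an array, per the file headers. The deposited detection values are fractions between 0 and 1, and detection p was taken as 1 minus them. A deposited table of log2 values, quantile normalized by its equal distributions (median 3.34), served as an alternative scale. The submitters' processing notes name GenomeStudio 2010.2 and lumi, without their roles. Per the file headers 1 column was named 34+41+ and was matched to CD34lo CD41lo, and each intensity column had a rank correlation of at least 0.999995 with the deposited log2 column of its own sample and at most 0.904 with another.

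Background correction and quantile normalization across the 13 arrays used neqc of limma 3.58.1 (R 4.3.3, offset 16). Of 47231 probes 1 without values was dropped. Of the symbols 27035 were current and 4649 older ones were updated. A gene was tested when a probe had a detection p below 0.01 on at least 1 array of the experiment, with its brightest such probe. Over days a natural spline of 3 degrees of freedom was fitted (5 residual and 3.98 prior degrees of freedom), p-values were Benjamini-Hochberg adjusted over all genes, and a change needed adjusted p below 0.05 and 2-fold. The unadjusted F test p was below 0.05 for 8571 genes. Between fractions a 2-fold difference counted if the brighter array detected the gene. An undetected side was raised to its array's floor, and the fold is then given as at least that size. The fit was also run on simulated data with independent noise and straight-line changes. That run cannot show how the p-values behave without replicate cultures. The labels do not give separate cultures, so p-values measure only the spread between these arrays.

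The 8 genes, the lists around them and the rules were chosen with earlier results of these data known. All 8 genes are named, with the 3 genes most correlated with each riser, and of each list the 2 called genes with the largest change, others being chosen after their values were seen. Alternatives were the deposited log2 scale, no background correction, no detection filter, a spline of 2 degrees of freedom, a robust prior, the dimmest probe, each day left out, separate normalization of the fractions and a 3-fold threshold.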

Additional observations from a re-analysis of the deposited data

How the results depend on the processing

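No paired analysis was possible because no day or fraction was repeated. With the submitters' values, no background correction, no detection filter, a spline of 2 degrees of freedom or a robust prior, the number of enzyme genes with a trend or changed in each interval of days stayed within 1.5 times the value reported, except that without background correction 1 gene rose from day 4 to day 8, since the fitted change of ALAD (0.99) fell under 2-fold. The rise of CPOX from day 0 to day 8 missed the test with the submitters' values (1.06, limma adjusted p = 0.0549) and the 2-fold threshold without background correction (0.97). Leaving out each day in turn gave 3 to 4 genes with a trend, 0 to 1 changed from day 0 to day 4, 0 to 2 from day 4 to day 8 and 2 to 4 from day 0 to day 8, with the lowest count from day 0 to day 8 without day 0 or day 8, where the curve has to be extended beyond the data. The trend of CPOX was lost without day 6, 7 or 8 (adjusted p = 0.0534, 0.0777 and 0.0903). Changes of sign came in uncalled values: CPOX from day 0 to day 4 ranged from -0.31 to 0.44, and PPOX from -0.66 to 0.24 in the first interval, from -0.047 to 0.85 in the later one and from -0.51 to 0.86 over the whole course, against 0.27, 0.05, 0.11 and 0.16 with all days. At a 3-fold threshold 0 genes were apart between CD34lo CD41- and CD34- CD41-, 0 between CD34lo CD41lo and CD34lo CD41-, and 1, ALAS2, between CD34lo CD41lo and CD34hi CD41-. The dimmest probe is no separate reading over days, since each of the 8 genes had 1 probe detected on any day, and it was not run for the fractions. Counts at 2-fold between fractions stayed within 1.5 times under the submitters' values, no background correction and separate normalization. The count of 7 genes highest in CD34lo CD41lo cells was the same under the 3 other scales.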
